A study of Mus musculus with 47 samples.

Results

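The mouse genome names its odorant receptor genes Olfr followed by a number, and the receptors described here are the 109 genes numbered Olfr828 to Olfr984 in the deposited table of TPM, a transcript level scaled to gene length and library size. They were taken by symbol alone, with no use of their levels, and make up 109 of the 1107 Olfr genes and of the 54532 genes in the table. All of them lie on chromosome 9, 72 on the plus and 37 on the minus strand (GRCm38, GENCODE M21), and they form 2 stretches. The first runs from Olfr828 to Olfr873, holds 31 of the receptors and spans positions 18814728 to 20303599. The second runs from Olfr874 to Olfr984, holds 78 and spans positions 37745106 to 40114206. The annotation lists 106 as protein coding and 3, Olfr908, Olfr915 and Olfr936, as polymorphic pseudogenes.

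Polyadenylated RNA of olfactory epithelium, the nasal sheet that carries the odor-sensing neurons, was sequenced at postnatal days 0, 3, 5, 7, 10, 14 and 21 (P0 to P21). The strain label of 23 libraries was C57BL/6J (WT) and that of the other 24 was OIVT;Kir2.1 (Kir). Kcnj2 encodes Kir2.1, a potassium channel whose overexpression is known to hold neurons near their resting potential. What OIVT stands for, and so in which cells the channel was driven, the sources used here do not give. WT and Kir each had 4 libraries at P0 and at P7, and 3 at P3, P5, P14 and P21, while P10 had 3 WT and 4 Kir libraries. Nothing in the labels ties each library to a separate animal, so every p-value below measures the spread between libraries.

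Each mature olfactory sensory neuron is known to express 1 odorant receptor gene, from 1 allele, chosen out of the whole repertoire. An odorant receptor is a protein with a chain that crosses the membrane several times and couples to the G protein subunit Gnal, which activates the adenylyl cyclase Adcy3 and opens the cyclic nucleotide-gated channel built from Cnga2, Cnga4 and Cngb1. In tissue RNA the level of a receptor therefore follows how many neurons have chosen it and how much of its RNA each one holds, and in these bulk samples fewer cells and less RNA per cell cannot be told apart. Receptor choice is known to involve the transcription factors Lhx2, which binds a homeodomain site with the core TAATTA, and the Ebf family, and the chaperones Rtp1 and Rtp2 help receptors reach the cell surface.

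The sequences that follow are the stretches just before the annotated start of 4 receptors that rose most from P0 to P21 in WT and whose RefSeq start lay within 50 bases of the GENCODE start. They come from RefSeq promoters of GRCm38.p6, read 5′ to 3′ on the gene's own strand and ending at the base before the GENCODE start. Capitals mark TAATTA, which reads the same on both strands, and TATAAA or its reverse complement TTTATA.
Olfr868: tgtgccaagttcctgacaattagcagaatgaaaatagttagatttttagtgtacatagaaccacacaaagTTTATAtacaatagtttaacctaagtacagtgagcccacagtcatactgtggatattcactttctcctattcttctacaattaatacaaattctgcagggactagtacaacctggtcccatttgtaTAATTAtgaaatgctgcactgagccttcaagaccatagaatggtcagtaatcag
Olfr860: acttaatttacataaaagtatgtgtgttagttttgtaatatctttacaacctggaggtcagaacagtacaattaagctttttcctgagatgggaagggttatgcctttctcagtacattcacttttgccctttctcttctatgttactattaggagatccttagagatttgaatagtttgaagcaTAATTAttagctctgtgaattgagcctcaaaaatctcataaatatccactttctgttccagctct
Olfr921: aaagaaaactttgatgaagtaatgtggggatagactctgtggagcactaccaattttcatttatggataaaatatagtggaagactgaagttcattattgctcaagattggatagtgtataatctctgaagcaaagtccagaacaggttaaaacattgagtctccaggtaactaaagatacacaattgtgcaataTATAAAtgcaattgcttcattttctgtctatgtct
Olfr943: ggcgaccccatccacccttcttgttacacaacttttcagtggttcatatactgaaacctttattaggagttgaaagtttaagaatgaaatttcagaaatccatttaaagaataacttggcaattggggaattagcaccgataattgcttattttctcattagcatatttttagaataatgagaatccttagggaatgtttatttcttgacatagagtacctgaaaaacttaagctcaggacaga

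The window of Olfr868 lies at chr9:20098376-20098625 on the plus strand, that of Olfr860 at chr9:19849748-19849997 on the minus strand, that of Olfr921 at chr9:38772838-38773067 on the plus strand and that of Olfr943 at chr9:39166060-39166303 on the plus strand. The TAATTA core began 54 bases before the start of Olfr868 and 65 bases before that of Olfr860, and neither Olfr921 nor Olfr943 held it. TATAAA began 35 bases before the start of Olfr921, and its reverse complement stood 180 bases before that of Olfr868. RefSeq promoters of 300 bases (250 before the start and 50 after it) were at hand for 92 of the 109 receptors, in 93 entries. The 250 bases before the start were searched on both strands. TAATTA occurred in 24.7% of these entries, in 17.4% of 851 entries for other Olfr genes and in 4.84% of all 32851 entries. TATAAA occurred in 45.2% of the entries for these receptors, in 38.8% of those for other Olfr genes and in 12.4% of all. These shares describe letters in a fixed window. Only 17 of the receptors had a RefSeq start within 50 bases of the GENCODE start, so for most the window may lie elsewhere than the start used here.

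Some of the receptors resemble each other closely, which bears on how reads are assigned. Olfr952 and Olfr955 matched at 98.1% of 945 aligned bases. Olfr870 and Olfr871, neighbours in the first stretch, matched at 97.5% of 936 bases, and their coding sequences of 936 bases differed at 23 positions. Coding bases 373 to 432 of this pair, the window of 60 bases with the most differences, are shown because Olfr870 had the smallest adjusted p of the genotype comparison below; capitals mark the bases that differ.
Olfr870: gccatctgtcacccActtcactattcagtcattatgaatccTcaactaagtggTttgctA
Olfr871: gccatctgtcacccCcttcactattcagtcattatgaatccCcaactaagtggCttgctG

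The deposited count table keeps multimapping reads on a line of their own, 5.17% to 20.6% of the reads of a library, so the counts of such pairs leave those reads out. Olfr984 also shares a stretch of 231 bases with Rpia at 98.7% identity. Olfr915 and Olfr916 overlap Gm49385 on the same strand, and Olfr860, Olfr870, Olfr872 and Olfr943 overlap other annotated genes on the opposite strand. The strand setting of the counting was not stated in the sources, so reads of such overlapping genes cannot be told apart.

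Levels of the receptors were low. Over the 23 WT libraries the median receptor stood at 1.34 TPM, against 1.77 TPM for the 998 other Olfr genes, and 65 of the 109 reached 1 TPM. TPM is scaled by gene length and so can be compared between genes. Olfr969 was the highest, at 9.59 TPM with a range of 4.04 to 19.3 over the WT libraries, followed by Olfr857 at 6.90, Olfr943 at 5.34 and Olfr972 at 5.22 TPM. These 4 made up 14.6% of the summed mean TPM of the 109. The means pool 7 ages, and the order below Olfr969 was not the same at each. At P0 Olfr857 stood at 3.8 ± 0.866 TPM (SD, n = 4) and Olfr943 at 1.53 TPM, below Olfr884 at 3.62 and Olfr961 at 3.04 TPM. At P21 Olfr943 stood at 8.76 ± 1.39 TPM (SD, n = 3), above Olfr855 at 7.83, Olfr972 at 7.67 and Olfr857 at 6.38 TPM. Olfr969 had the highest WT mean at each of the 7 ages. The next 6 were Olfr884, Olfr951, Olfr959, Olfr859, Olfr835 and Olfr923, between 4.21 and 3.51 TPM. Ranges over WT libraries overlapped between all neighbours in this order, over libraries of 7 ages. No receptor was listed at 0 in every WT library, but Olfr926 had 1 count in all 47 libraries together, Olfr891 had 5, Olfr952 had 8 and Olfr908 had 32.

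Between 97 and 107 of the receptors had at least 1 count in a library, and together they took 818 to 7750 of the 8107547 to 30385151 gene counts of a library. At this depth 98 of the 109 passed the filter on low counts and were tested. The 11 that did not were Olfr834, Olfr850, Olfr853, Olfr883, Olfr891, Olfr906, Olfr908, Olfr926, Olfr952, Olfr967 and Olfr975. Every test below covers all 19927 genes that passed, with the Benjamini-Hochberg adjustment over them, and calls were made where that value was below 0.05. Levels for comparing libraries are CPM, counts scaled to the normalised library size, and errors of log2 differences are standard errors.

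Before the comparisons, some libraries need naming. Kcnj2 was higher in Kir than in WT, with a log2 difference of 3.63 ± 0.21 averaged over ages (edgeR adjusted p = 7.59e-14), but in 5 Kir libraries it stood below 300 CPM: 1 of the 3 at P3 (replicate 3), 2 of the 4 at P7 (replicates 1 and 4) and 2 of the 3 at P21 (replicates 1 and 2). At P21 Kir replicates 1 and 2 had 209 and 238 CPM of Kcnj2 and replicate 3 had 1050 CPM, against 93.6 to 104 CPM in WT. Kir P10 replicates 1 and 2 had 17.7% and 33.5% unmapped reads. WT P0 replicate 3 has a title of P0 and a stage label of P3, and was kept in P0, where the series design lists 4 WT samples. Sample titles also carry a prefix: cry4 on every P0, P3, P14 and P21 library, cry6 on every P5 and P10 library, and all of cry3, cry4 and cry6 at P7. The prefix entered each model, and P0, P14 and P21 differ in no prefix. Omp, the olfactory marker protein of mature sensory neurons, was counted in the libraries of all ages. It stood at 300 to 402 CPM in WT at P0 and 2303 to 2604 CPM in WT at P21, which does not show that no other tissue was taken.

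The plot of sums by library shows the summed level of the 109 receptors over age. In WT it was 137, 197, 129 and 167 CPM at P0, 429, 302 and 464 CPM at P14 and 264, 316 and 310 CPM at P21. In Kir it was 99.8, 142, 123 and 72.5 CPM at P0, 365, 272 and 208 CPM at P14 and 348, 365 and 248 CPM at P21. All WT libraries at P14 and P21 lay above all WT libraries at P0, and the Kir P21 library with the high Kcnj2 level was the lowest of its group. As a share of all Olfr counts the receptors had another order in WT: they made up 8.46%, 8.85%, 8.59% and 7.84% at P0, and 5.56%, 6.29% and 6.41% at P21, below every WT share at P0. In Kir the share was 7.45%, 8.43%, 8.22% and 8.07% at P0 and 7.14%, 7.32% and 7.27% at P21. At P21 the Kir shares lay above the WT shares without overlap. These sums and shares received no test.

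**Figure D1:**
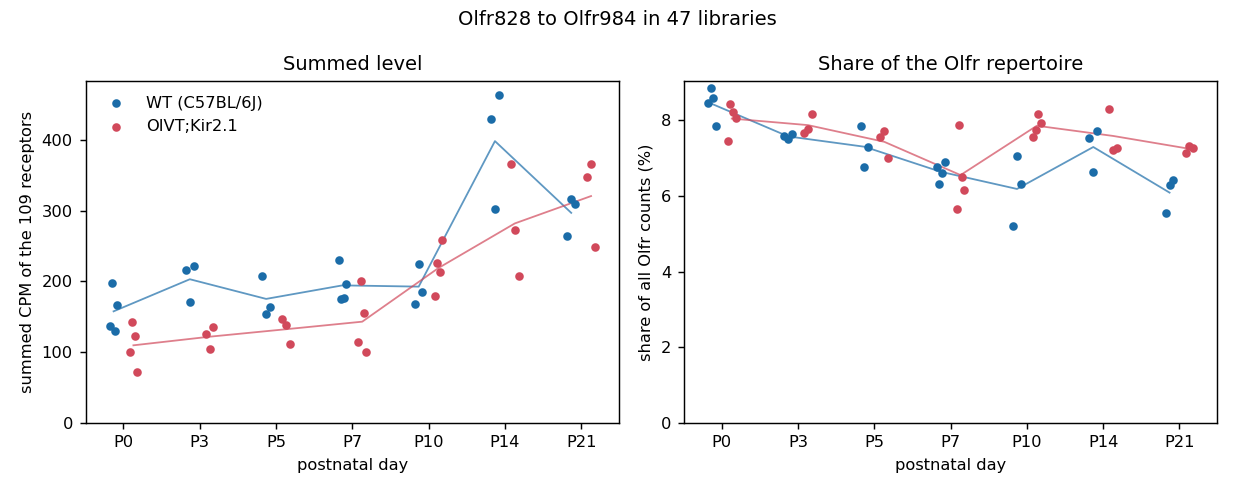
Summed CPM of the 109 receptors (left) and their share of all Olfr counts in percent (right), by postnatal day. Points are the 47 libraries and lines join group means. In WT the summed level is highest at P14, at 302 to 464 CPM, while the share is 7.84% to 8.85% at P0 and 5.56% to 6.41% at P21.

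The first question is whether the receptors differ between genotypes over all ages. Averaged over the 7 ages, 38 of the 98 tested receptors were lower in Kir and 0 were higher, and the median log2 difference was -0.34. Of all 19927 genes 7.38% were called lower and 3.03% higher, with a median of 0.01. Among the 899 other Olfr genes tested 489 were lower and 0 higher, with a median of -0.45. Of the genes that mark mature sensory neurons, 16 of 18 were called lower, with a median of -0.40. The summed level of that list ran from 3379 to 4234 CPM in WT at P0 and from 1947 to 3787 CPM in Kir at P0, and from 14590 to 16930 CPM in WT at P21 and from 12540 to 13390 CPM in Kir at P21, and none of its genes was at 0 in any library. When libraries were scaled to the mature neuron genes in place of all genes, the median of the receptors was 0.03, with 18 called higher and 23 lower. That scaling moved the median of all genes to 0.39, with 77.3% of them called higher and 1.69% lower. The other Olfr genes then had a median of -0.08. Without the 5 Kir libraries of low Kcnj2 34 receptors were called lower and 0 higher.

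The 38 called differences ran from -0.39 to -1.28 on the log2 scale, and 8 of them were at least 2-fold. Of the 38, 25 were below 0 at all 7 ages, as were 28 of all 98 tested receptors. The calls rest on the mean of these same 7 differences, so agreement in sign is partly built in. The 2 stretches of chromosome 9 differed in their counts: 15 of 28 tested receptors of the first stretch were lower, all 28 had a fitted difference below 0 and the median was -0.56. In the second stretch 23 of 70 were lower, 60 had a fitted difference below 0 and the median was -0.25. Whether the stretches differ was not tested.

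**Figure D2:**
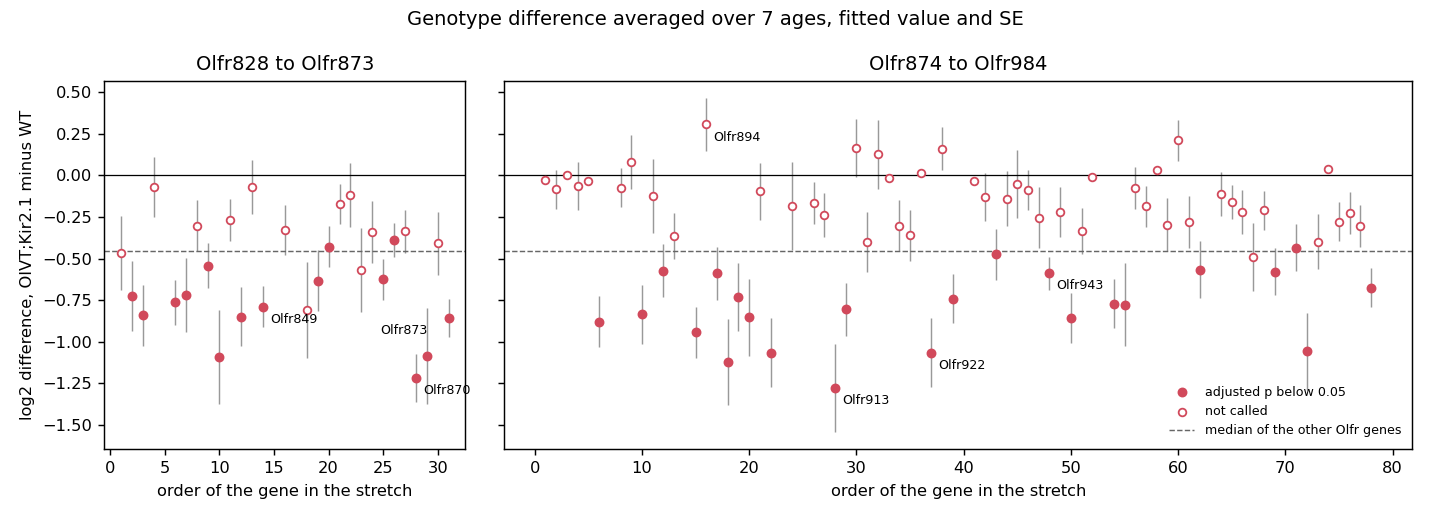
Fitted log2 difference of Kir minus WT, averaged over 7 ages, for the 98 tested receptors in their order along each stretch of chromosome 9. Bars are standard errors, left off where the difference is under 0.05. Filled points are the 38 called, open points were not called, and the dashed line is the median of the other Olfr genes at -0.45.

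Olfr870 (position 20168533 to 20174057, minus strand) had the smallest adjusted p of the receptors. In WT it stood at 1.79, 2.29, 1.57 and 2.09 CPM at P0, at 4.13, 1.94 and 2.88 CPM at P3, and at 3.25, 1.64 and 1.72 CPM at P5. In Kir it stood at 0.822, 0.744, 0.804 and 0.0886 CPM at P0, at 0.622, 1.44 and 0.937 CPM at P3, and at 1.20, 0.456 and 0.476 CPM at P5. At each of these ages every Kir library was below every WT library. At P14 the WT libraries had 4.72, 3.99 and 6.58 CPM and the Kir libraries 2.26, 1.58 and 1.16 CPM, and at P21 the WT libraries had 3.66, 5.05 and 4.97 CPM and the Kir libraries 3.11, 3.05 and 1.18 CPM. The groups did not overlap at P14 or P21 either. At P21 the Kir library with the high Kcnj2 level was the lowest of its group, while at P3 that of low Kcnj2, at 0.937 CPM, lay between the others. Averaged over ages Olfr870 was lower by a log2 difference of -1.22 ± 0.14 (edgeR adjusted p = 5.45e-08). Olfr871, the near copy shown above, was called lower as well, at -1.09 ± 0.29 (adjusted p = 0.00939), with at most 1.51 CPM in any library.

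Olfr873 (20298532 to 20303599), the last gene of the first stretch, was lower in Kir too. At P0 it stood at 3.10, 4.05, 3.45 and 4.78 CPM in WT and at 2.01, 1.58, 2.27 and 1.15 CPM in Kir. At P21 it stood at 7.04, 9.54 and 7.55 CPM in WT and at 4.96, 6.73 and 2.55 CPM in Kir. The groups did not overlap at either age, and the averaged difference was -0.86 ± 0.11 (edgeR adjusted p = 4.92e-07). Olfr849 (19440266 to 19446923) stood at 8.59, 6.13 and 10.3 CPM in WT at P14 and at 3.52, 3.62 and 2.31 CPM in Kir at P14. Its groups overlapped at P0 and did not at P14, and its averaged difference was -0.79 ± 0.12 (edgeR adjusted p = 1.23e-05).

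Of the other called receptors that had a mean of at least 0.5 CPM and were below 0 at all ages, the 12 with the next smallest adjusted p were Olfr893, Olfr943, Olfr881, Olfr984, Olfr945, Olfr835, Olfr922, Olfr867, Olfr924, Olfr846, Olfr887 and Olfr830. Their averaged differences ran from -0.59 ± 0.10 in Olfr943 to -1.07 ± 0.21 in Olfr922. Of these 12, Olfr881 was not called by limma on log2(TPM + 1) (adjusted p = 0.0685) or log2(TPM + 0.1) (0.0557). The lowest fitted difference, -1.28 ± 0.26, was that of Olfr913, a receptor of at most 2.33 CPM in any library. At the other end 10 receptors had a fitted difference above 0, none of them called, led by Olfr894 at 0.31 ± 0.16 and Olfr961 at 0.21 ± 0.12.

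At single ages few receptors were called, with 3 or 4 libraries per group. At P0 3 were lower in Kir, Olfr870 at -1.64 ± 0.40, Olfr873 at -1.12 ± 0.29 and Olfr876 at -0.87 ± 0.22 (edgeR adjusted p = 0.0375, 0.05 after rounding up, and 0.0466), where 0.637% of all genes were called lower and 0.346% higher. No receptor was called at P0 without WT replicate 1 or 2 or Kir replicate 4, and 1 without Kir replicate 2. At P3 2 were lower, Olfr913 at -3.41 ± 0.86 and Olfr954 at -1.71 ± 0.43 (adjusted p = 0.0479 and 0.0494), against 0.552% of all genes called lower and 0.161% higher. Olfr913 stood at 0.768, 0.441 and 1.62 CPM in WT at P3 and at 0.0888, 0.103 and 0.0669 CPM in Kir, and Olfr954 at 2.30, 1.68 and 2.6 CPM in WT and at 0.888, 0.514 and 0.603 CPM in Kir. Neither pair of groups overlapped, and the Kir values of Olfr913 are those of 1 count in each library. Same-numbered WT and Kir libraries deviated together at P3, and with the replicate number as a block neither was called (adjusted p = 0.0931 for Olfr913 and 0.207 for Olfr954). Both calls were also lost with WT P0 replicate 3 placed in P3, and without WT replicate 1 or 3 or any 1 of the 3 Kir replicates, and that of Olfr954 also without WT replicate 2. At P14 4 were lower, Olfr849, Olfr870, Olfr924 and Olfr943, with differences of -1.02 to -1.58, against 0.412% of all genes called lower and 0.768% higher. Olfr924 stood at 4.82, 3.99 and 5.0 CPM in WT at P14 and at 2.59, 0.557 and 1.54 CPM in Kir, and Olfr943 at 14.3, 8.66 and 14 CPM in WT and at 7.83, 5.66 and 4.63 CPM in Kir. Both had every Kir library below every WT library at this age. No receptor was called at P14 without WT replicate 1 or 3 or Kir replicate 3, 1 was called without Kir replicate 2, and 0 were called with scaling to the mature neuron genes. None was called at P5, P7 or P10. At these ages 0.0953%, 0.0201% and 0.291% of all genes were called lower and 0.0201%, 0.0552% and 2.82% higher. Of the 899 other Olfr genes 1.45% were called lower at P0, 6.23% at P3 and 4.45% at P14. The shares of the receptors were 3.06%, 2.04% and 4.08%. At P5, P7 and P10 0.667%, 0.222% and 3% of the other Olfr genes were called lower. At none of these ages was any of them called higher.

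The median difference over the 98 receptors was -0.52 at P0, -0.79 at P3, -0.46 at P5, -0.40 at P7 and -0.55 at P14, and it was 0.13 at P10 and 0.06 at P21. The other Olfr genes had medians of -0.47 at P0, -0.80 at P3, -0.44 at P5, -0.46 at P7 and -0.61 at P14. Their medians were -0.16 at P10 and -0.22 at P21. Kir P10 holds the 2 libraries with many unmapped reads and Kir P21 holds 2 with low Kcnj2, and the part of either in these medians was not tested. A test of whether a genotype difference changed with age, over all 7 ages, called 0 of the 98 receptors, against 0.256% of all genes.

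**Figure D3:**
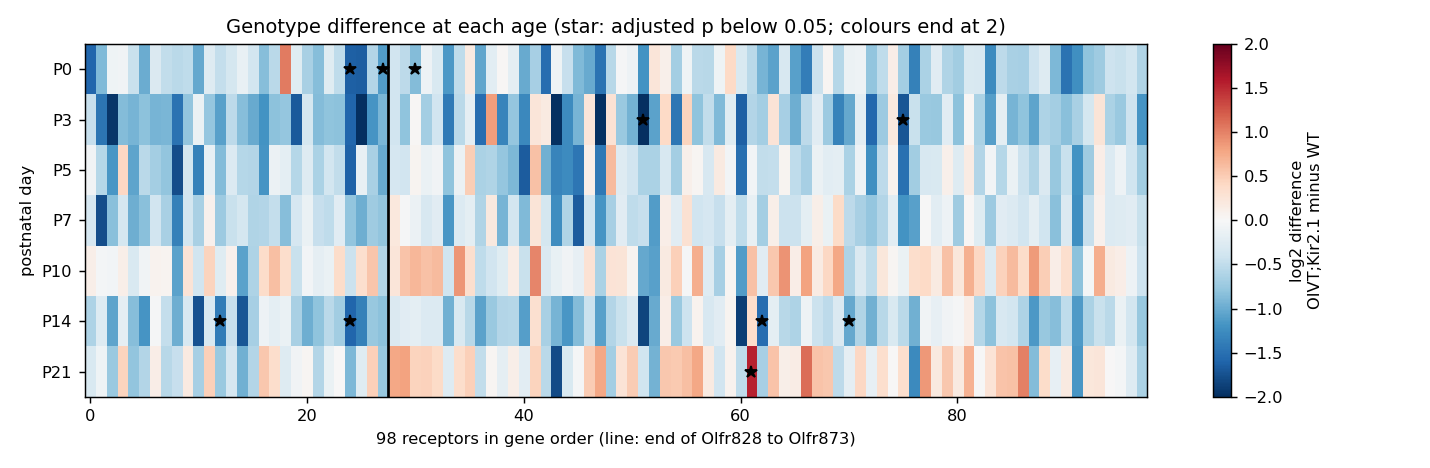
Fitted log2 difference of Kir minus WT at each age (rows) for the 98 tested receptors in gene order (columns). Blue is lower and red is higher in Kir, stars mark the 10 values called at an adjusted p below 0.05, and the row medians run from -0.79 at P3 to 0.13 at P10.

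Olfr923 (38826545 to 38830300) was the single receptor called at P21, and it was higher in Kir. In WT at P21 it stood at 1.83, 3.58 and 2.24 CPM and in Kir at P21 at 6.38, 8.97 and 6.92 CPM, so the groups did not overlap. The Kir library with the high Kcnj2 level, at 6.92 CPM, lay between those with low Kcnj2. The difference was 1.54 ± 0.37 (edgeR adjusted p = 0.0275), where 0.652% of all genes were called higher and 0.105% lower at this age. Of the 899 other Olfr genes 0 were called higher and 6 lower. At P0 the order was not the same, with WT at 2.77, 4.75, 2.92 and 2.96 CPM and Kir at 1.74, 2.98, 3.51 and 0.886 CPM. The call at P21 was lost without WT P21 replicate 1 or 3 or without Kir P21 replicate 2 or 3. Leaving out the Kir libraries of low Kcnj2 leaves 1 Kir library at P21, which is then assumed to vary like the other groups; in that fit no receptor was called higher and 1 was called lower.

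The second question is how the receptors change from P0 to P21. In WT 39 of the 98 receptors rose from P0 to P21 and 1 fell, and the median log2 change was 0.84; scaled to the mature neuron genes instead, 0 rose and 70 fell, with a median of -1.20. Of all genes 23.9% were called higher and 26.7% lower, with a median of -0.05. The scaling to mature neuron genes moved that median to -2.13, with 0.908% of all genes called higher and 90.9% lower. Scaled to all genes, 574 of 899 other Olfr genes rose and 5 fell, with a median of 1.19. Their median was -0.85 with the scaling to mature neuron genes. The 18 mature neuron genes all rose, with a median of 1.96, Omp by 2.78 ± 0.18.  At P0 the libraries also held RNA of other tissue: the 7 cartilage genes summed to between 191 and 8937 CPM in WT at P0 and to between 65.9 and 80.5 CPM in WT at P21. Other marker lists moved as well from P0 to P21 in WT: 5 of 7 brain neuron genes fell and 1 rose, with 587 CPM in WT P0 replicate 1 and 113 to 170 CPM in the other WT P0 libraries, 9 of 10 globose basal cell genes and 5 of 8 ciliated cell genes fell, and 6 of 9 sustentacular cell genes rose. Their part in the result was not tested.

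Olfr921 (38773068 to 38779021) rose most. In WT it stood at 0.652, 0.616, 0.522 and 0.869 CPM at P0 and at 3.66, 4.86 and 4.76 CPM at P21. All P21 libraries lay above all P0 libraries, and the change was 2.72 ± 0.35 (edgeR adjusted p = 6.48e-08). Olfr868 (20098626 to 20104754) stood at 1.88, 1.67, 1.77 and 2.09 CPM at P0 and at 11.8, 11.4 and 12.5 CPM at P21, a change of 2.68 ± 0.27 (edgeR adjusted p = 5.12e-10). Its WT libraries at P21 were narrowly spread around 12 CPM. Scaled to the mature neuron genes, the changes were 0.67 for Olfr921 and 0.61 for Olfr868, neither of them called.

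Olfr860 (19845156 to 19849747) rose from 0.163, 0.352, 0.104 and 0.348 CPM at P0 to 0.964, 1.19 and 2.1 CPM at P21, a change of 2.52 ± 0.54 (edgeR adjusted p = 0.000196). Olfr943 (39166304 to 39192350) rose from 1.88, 2.02, 2.19 and 1.39 CPM to 7.71, 10.3 and 8.74 CPM, a change of 2.25 ± 0.26 (edgeR adjusted p = 8.67e-09). Both overlap a gene of the opposite strand, and the P0 and P21 libraries of each did not overlap. Among called receptors whose WT libraries at P0 and P21 did not overlap, the next 6 in size were Olfr914, Olfr984, Olfr937, Olfr855, Olfr912 and Olfr954, with changes of 2.17 ± 0.41 to 1.72 ± 0.39.

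Olfr920 (38752299 to 38760117) went the other way. In WT it stood at 4.00, 2.73, 2.71 and 1.56 CPM at P0, at 1.15, 0.882 and 1.12 CPM at P3 and at 1.16, 1.65 and 1.33 CPM at P21. The 3 other WT libraries at P0 were above every later WT library, while replicate 4 lay within their range. Its log2 change was -1.0 ± 0.38 (edgeR adjusted p = 0.0295), and the call was lost without WT P0 replicate 1 (adjusted p = 0.12), WT P21 replicate 1 (0.1) or WT P21 replicate 3 (0.0802). It was also lost with WT P0 replicate 3, the library of conflicting labels, placed in P3 (0.0593) and with no filter on low counts (0.0519). In Kir it was the single receptor that fell, from 2.1, 2.51, 2.56 and 3.19 CPM at P0 to 1.09, 1.79 and 0.273 CPM at P21, by 1.29 ± 0.40 (edgeR adjusted p = 0.0071).

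**Figure D4:**
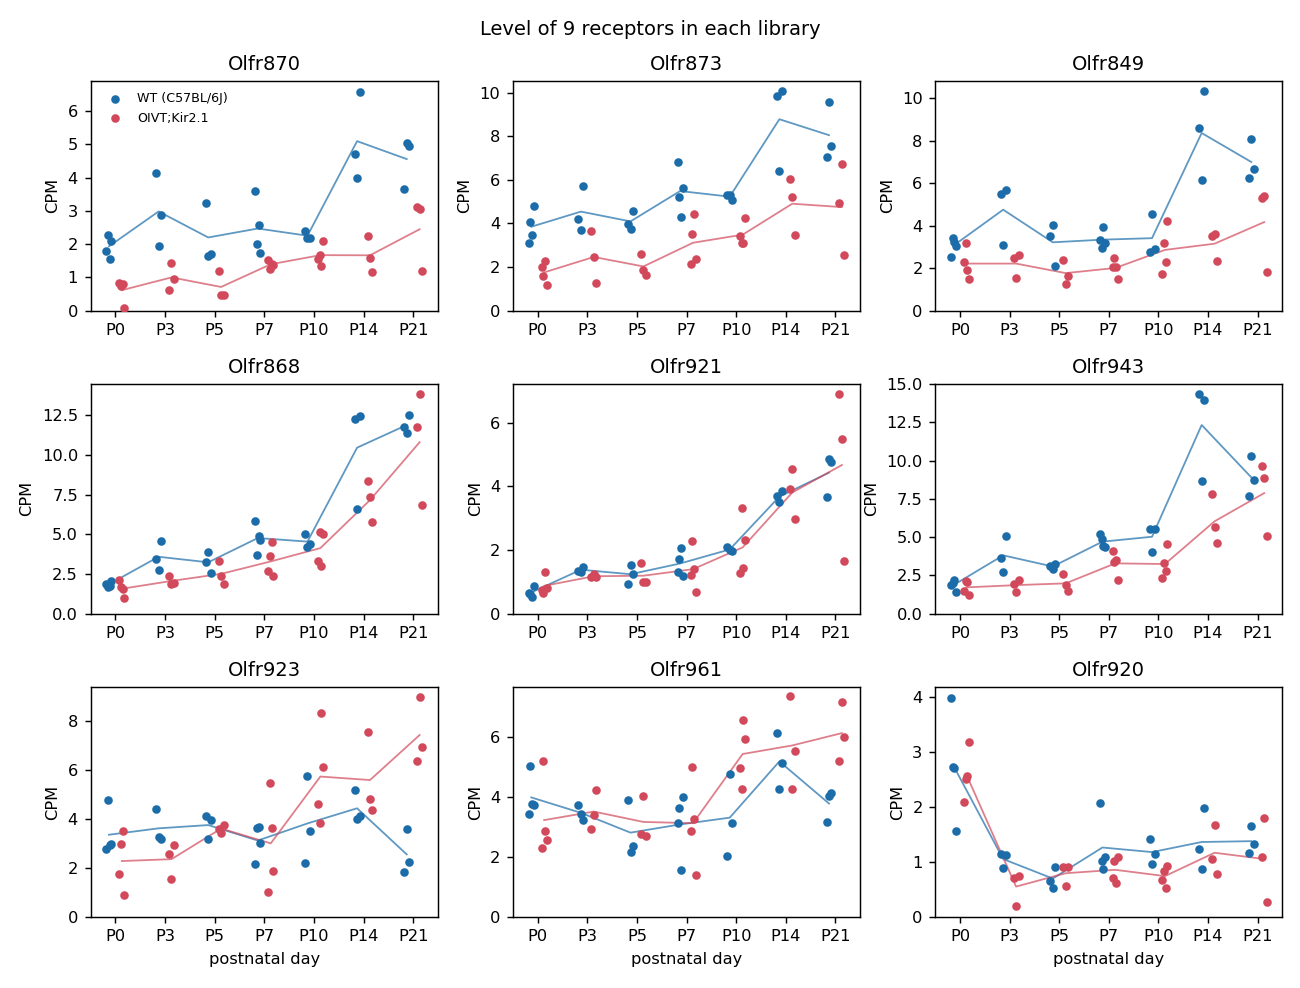
CPM of 9 receptors by postnatal day, with a point for each library and lines through group means. Olfr870, Olfr873 and Olfr849 lie lower in Kir, Olfr868, Olfr921 and Olfr943 rise with age in both genotypes, Olfr923 and Olfr961 do not rise in WT from P0 to P21, and Olfr920 falls after P0.

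In Kir 72 of the 98 receptors rose from P0 to P21 and 1 fell, with a median of 1.5, where 22.9% of all genes rose and 25.8% fell. Scaled to the mature neuron genes, 0 receptors rose and 34 fell, where 0.813% of all genes rose and 90.7% fell. Scaled to all genes, the other Olfr genes had a median of 1.51, with 708 of 899 higher. Without the Kir libraries of low Kcnj2, which leaves 1 Kir library at P21 that is assumed to vary like the other groups, 31 receptors were called higher and 1 lower. Of the 72 receptors 35 were called higher in WT too, 37 in Kir without a call in WT, and 4 others in WT without a call in Kir. The difference between the changes was itself tested: 0 of 98 receptors passed, where 0.251% of all genes did (0.241% with a larger change in Kir and 0.01% with a smaller one). DESeq2 called 2 receptors. The median of that difference was 0.59 over the receptors and 0.25 over the other Olfr genes. Olfr923 had the smallest adjusted p, 0.0561 by edgeR, with a change of -0.40 ± 0.36 in WT and of 1.69 ± 0.34 in Kir. Next came Olfr876 (adjusted p = 0.0696), which in Kir stood at 1.46, 1.49, 1.90 and 0.886 CPM at P0 and at 6.30, 6.37 and 5.37 CPM at P21, and in WT at 2.94, 2.82, 2.09 and 2.69 CPM at P0 and at 4.24, 5.05 and 3.99 CPM at P21. Its Kir libraries were below those of WT at P0 and above them at P21. Without Kir P0 replicate 3, 2 receptors passed.

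**Figure D5:**
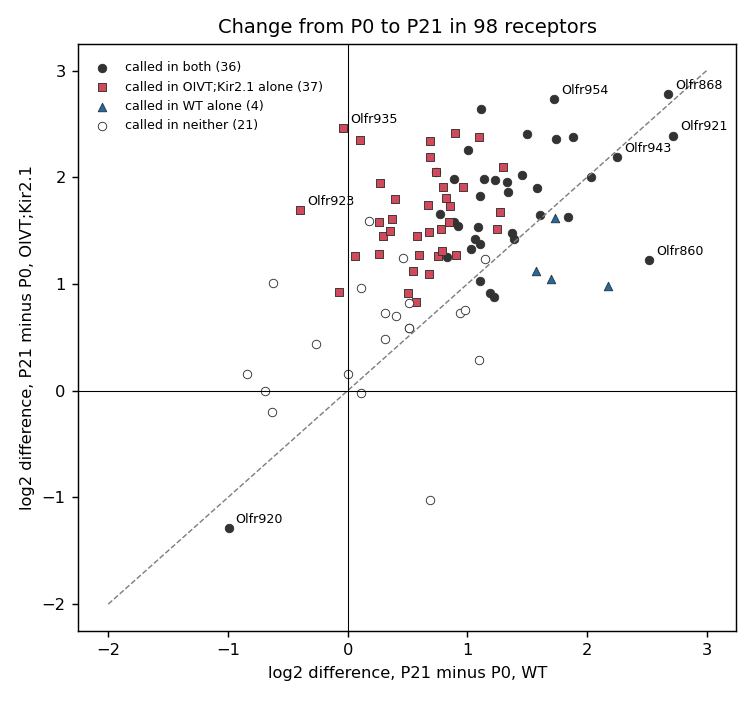
Log2 change from P0 to P21 in WT (horizontal) and in Kir (vertical) for the 98 tested receptors, with the line of equal change dashed. Black points were called in both genotypes, with Olfr920 as the one that fell, squares in Kir alone, triangles in WT alone and open circles in neither; the difference between the genotypes was called for 0 receptors.

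In WT the receptors were highest at P14 more often than at P21. The group mean CPM was highest at P14 for 95 of the 109 receptors and at P21 for 7. These 109 include the 11 that did not pass the filter on low counts, while the other Olfr genes are only those that passed. Among the other Olfr genes tested the group mean was highest at P14 for 627 of 899 and at P21 for 220. In Kir it was highest at P21 for 62 of the receptors and at P14 for 30, and among the other Olfr genes tested at P21 for 608 of 899 and at P14 for 195. With the ages that hold only cry4 libraries the counts were 96 at P14 in WT and 66 at P21 in Kir. The step from P14 to P21 in WT had a median of -0.46 over the 98 receptors and -0.25 over the other Olfr genes, and 91 of the 98 had a fitted value below 0. None of the receptors passed the edgeR test of this step, a comparison added after the data were seen, in which 0.0452% of all genes were called lower. DESeq2 called 0 receptors. In Kir the same step, tested likewise, called 0 of the 98 (0.1% of all genes higher and 0.356% lower), with a median of 0.10 and 63 fitted values above 0.

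The third question is which receptors changed relative to the rest of the repertoire. For this the libraries were scaled so that the counts of the other Olfr genes summed to the same total in each, which moved the median of all genes to 0.45 in the genotype comparison and to -1.50 in that of WT ages. Averaged over ages, 29 of the 98 receptors were higher in Kir relative to the other Olfr genes and 21 were lower, with a median of 0.07. On this scale the calls took 81.2% of all genes as higher and 1.42% as lower. Of the other Olfr genes 164 of 899 were higher and 214 lower. The second stretch held 26 of the 29 higher receptors, of 70 tested, and the first 3, of 28 tested; the lower receptors were 13 in the second stretch and 8 in the first. Without the filter on low counts 17 receptors were higher and 15 lower.

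Olfr961 (39645085 to 39649556) led the higher receptors, at 0.65 ± 0.12 relative to the other Olfr genes (edgeR adjusted p = 1.13e-05). In CPM it stood at 3.18, 4.04 and 4.13 in WT at P21 and at 5.21, 7.18 and 6.01 in Kir at P21. The groups were apart at P21 and overlapped at P0, where WT had 3.43, 5.02, 3.76 and 3.74 CPM and Kir 2.28, 5.21, 2.85 and 2.57 CPM. Next came Olfr876, the receptor called lower in Kir in CPM at P0, at 0.43 ± 0.08 (adjusted p = 1.85e-05), then Olfr923 at 0.58 ± 0.12, Olfr894 at 0.72 ± 0.15 and Olfr959 at 0.47 ± 0.11. The lower receptors were led by Olfr870 at -0.80 ± 0.12 (adjusted p = 1.92e-06), Olfr873 at -0.43 ± 0.09, Olfr849 at -0.38 ± 0.10, Olfr913 at -0.87 ± 0.25 and Olfr881 at -0.47 ± 0.15. Olfr881 was not called relative to the other Olfr genes without the Kir libraries of low Kcnj2 (adjusted p = 0.0536).

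From P0 to P21 in WT 5 of the 98 receptors rose relative to the other Olfr genes and 32 fell, with a median of -0.57. Of the 899 other Olfr genes 187 rose and 246 fell, with a median of -0.22. On this scale 2.42% of all genes rose and 80.7% fell. The 5 were Olfr868 at 1.24 ± 0.22 (edgeR adjusted p = 3.97e-06), Olfr921 at 1.30 ± 0.33, Olfr943 at 0.80 ± 0.22, Olfr984 at 0.63 ± 0.26 and Olfr860 at 1.15 ± 0.48. The call of Olfr984 was lost without WT P0 replicate 1 or WT P21 replicate 2, and that of Olfr860 without WT P0 replicate 1 or 3 or WT P21 replicate 3. With no filter on low counts both calls were lost (adjusted p = 0.139 for Olfr984 and 0.0894 for Olfr860), and that of Olfr860 was also lost by DESeq2 (0.0561) and with WT P0 replicate 3 placed in P3 (0.0858). The promoters of 4 of these 5 are those shown above.

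Those that fell most relative to the other Olfr genes, by adjusted p, were Olfr920 at -2.47 ± 0.40 (adjusted p = 7.93e-07), Olfr923 at -1.82 ± 0.32, Olfr961 at -1.50 ± 0.32, Olfr915 at -2.07 ± 0.44 and Olfr951 at -1.28 ± 0.29. In CPM, Olfr923, Olfr961 and Olfr951 had changes of -0.40 to 0.11 that did not pass the test. The change of Olfr915 in CPM lay below this range and did not pass either. In Kir 6 receptors rose from P0 to P21 on this scale and 18 fell, with a median of -0.18. The other Olfr genes had the same median, -0.18, with 135 of 899 higher and 182 lower. Of all genes 1.79% rose and 85% fell. The WT comparison and the averaged genotype comparison share the WT libraries at P0 and P21.

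The genes that serve receptor choice and transport were read from lists beside the receptors. Of 16 genes linked to receptor choice, among them the transcription factors Lhx2 (-0.05 ± 0.08) and Ebf1 (-0.07 ± 0.05) and the Lhx2 partner Ldb1 (0.05 ± 0.07), 0 were called between genotypes averaged over ages. Of 6 trafficking genes 5 were lower in Kir: Rtp1 by 0.27 ± 0.07, Rtp2, Reep1, Ric8b and Gfy, a Golgi protein of sensory neurons, by 0.41 ± 0.09 on the log2 scale. Rtp1, Rtp2, Ric8b and Gfy also stand on the mature neuron list. From P0 to P21 in WT 6 choice genes rose, Ebf4 by 1.54 ± 0.23 and Ebf2 by 0.77 ± 0.15, and 2 fell, Lbr and Kdm1a, while 4 trafficking genes rose and 0 fell. All 8 macrophage genes and all 10 interferon-response genes were higher in Kir; the interferon genes summed to 49.1 to 63.0 CPM in WT and 546 to 1209 CPM in Kir at P21. At P0 their ranges overlapped, at 54.2 to 125 CPM in WT and 75.7 to 149 CPM in Kir. Of the Kir libraries of low Kcnj2, P7 replicates 1 and 4 had 45.8 and 50.1 CPM against 47.2 to 55.8 CPM in WT at P7. The others lay above WT: P3 replicate 3 had 96.7 CPM against 37.3 to 46.6 CPM in WT at P3, and P21 replicates 1 and 2 had 546 and 578 CPM. The part of the macrophage and interferon genes in the differences of the receptors was not tested.

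Olfr969, the receptor of highest TPM, was not called between genotypes averaged over ages, at -0.16 (edgeR adjusted p = 0.395). In WT it stood at 3.10, 5.20, 3.65 and 4.61 CPM at P0 and at 8.10, 7.98 and 8.88 CPM at P21, and in Kir at 2.28, 3.44, 3.51 and 1.24 CPM at P0 and at 13.4, 11.5 and 12.8 CPM at P21. Both genotypes were higher at P21 than at P0 without overlap, with a change of 1.01 ± 0.27 in WT (edgeR adjusted p = 0.00229). Olfr857, second in TPM, was lower in Kir by a log2 difference of -0.43 ± 0.12 averaged over ages (edgeR adjusted p = 0.0169), and its change from P0 to P21 in WT, 0.40 ± 0.32, did not pass the test.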

How the data were processed

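RNA of 47 olfactory epithelium libraries was sequenced as polyadenylated RNA, per the labels. The counts are the authors' deposited whole-number counts per gene, and the TPM are the authors' deposited values; bcl2fastq 2.18, STAR 2.6.1c, RSEM and mm10 are named per the submitters' processing notes, and no source states the strand setting. Libraries held 8107547 to 30385151 gene counts, so receptors of a few counts were measured coarsely. Groups follow titles and strain labels.

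All 19927 genes that passed filterByExpr were fitted together (edgeR 4.0.16 quasi-likelihood, robust, TMM, R 4.3.3) with a mean per group and the title prefix, two-sided, with Benjamini-Hochberg adjustment and a threshold of 0.05. A second scaling used the summed counts of Olfr genes outside the 109. Alternatives used DESeq2 1.42.0, limma 3.58.1 on log2(TPM + 1) and log2(TPM + 0.1), other filters and scalings, a replicate block and left-out libraries. The edgeR fit was tested on simulated counts for the averaged genotype comparison alone, with the same spread for every gene and no effect of the prefix. Of 100 genes changed 1.5-fold 89 were called, and of 100 changed 2-fold 100 were, with 3 false calls among 192. The other comparisons were not simulated. Replicates were compared and none was identical. Same-numbered WT and Kir libraries were taken as pairs at P3, where all 3 correlations of their deviations were over 0.1 (0.208, 0.242 and 0.272), as a hint from the data and not from the labels. Sequence identity was found with blastn 2.17.0 on nucleotides, in place of the planned protein identity, since no protein table was used here.

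The receptors and gene lists were chosen with earlier results of these data known. Named receptors are the 10 of highest mean TPM in WT; the 15 called in the averaged genotype comparison with the smallest adjusted p, 1 sign at all 7 ages and at least 0.5 CPM; the 10 of largest change from P0 to P21 in WT whose libraries do not overlap, with at least 0.5 CPM; called receptors of the minority direction; and the 5 of smallest adjusted p in each direction relative to the other Olfr genes. Olfr871, Olfr876, Olfr913, Olfr923 and Olfr954 in the genotype comparisons in CPM, and Olfr923 in the difference between age changes, were named after their values were seen.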

Additional observations from a re-analysis of the deposited data

Results flagged for a closer look

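In groups of 4 libraries, a library was singled out where its gap to the nearest other library, over the range of the group, passed Dixon's critical value of 0.829. Of 75 such tests, for the receptors described in detail and for the summed level and share of all the receptors, 4 passed. All 4 were of single receptors, and chance gives about 1 in 20. Olfr969 stood at 8.06 CPM in Kir P10 replicate 1, a library with 17.7% unmapped reads, and at 11.1 to 11.5 CPM in the other Kir P10 libraries. Olfr857 stood at 3.71 CPM in WT P7 replicate 2 and at 5.46 to 5.76 CPM in the others. Olfr870 stood at 0.0886 CPM in Kir P0 replicate 4 and at 0.744 to 0.822 CPM in the others, and without that library 0 receptors were called at P0. Olfr923 stood at 4.75 CPM in WT P0 replicate 2 and at 2.77 to 2.96 CPM in the others. The cause was not tested.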

How the results depend on the processing

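The count of 38 receptors lower in Kir averaged over ages was 24 by limma on log2(TPM + 0.1) and ranged from 34 to 40 when each library was left out. The 3 calls at P0 became 1 with upper-quartile factors, without the Kir libraries of low Kcnj2 or without the Kir P10 libraries of many unmapped reads, and 0 with no filter or with limma at either pseudocount; they ranged from 0 to 4 over left-out libraries. The call at P21 became 0 without the prefix term or by limma on log2(TPM + 0.1), 2 by limma on log2(TPM + 1), and 1 in the other direction without the libraries of low Kcnj2, which leaves 1 Kir library at P21; it ranged from 0 to 1. The alternatives at P3 and P14 were chosen after seeing the data. The 2 calls at P3 became 6 by DESeq2 or scaled to the mature neuron genes (1 of them higher), 1 with upper-quartile factors, no filter, no prefix term or limma on log2(TPM + 1), and 0 with WT P0 replicate 3 placed in P3 or without the Kir P10 libraries of many unmapped reads, and ranged from 0 to 1. The 4 at P14 became 2 with no filter or with that library in P3, 1 by limma on log2(TPM + 0.1) and 0 scaled to the mature neuron genes, and ranged from 0 to 3. From P0 to P21, scaling to the mature neuron genes turned the direction in WT (70 lower) and in Kir (34 lower). On that scale 90.9% of all genes were called lower in WT and 90.7% in Kir. It gave Olfr937 -0.17, Olfr855 -0.25, Olfr912 -0.35 and Olfr954 -0.29 in WT. In Kir 32 were called without the libraries of low Kcnj2. Over left-out libraries WT gave 31 to 45 calls and Kir 60 to 72. The difference between these changes gave 2 calls by DESeq2, 1 with no filter, with a filter of 1 CPM in 10 libraries or scaled to the mature neuron genes, and 0 to 2 over left-out libraries. Relative to the other Olfr genes, 32 were called with no filter, against 50, and 46 to 53 over left-out libraries; for WT age the range was 31 to 39. The step from P14 to P21 in WT gave 0 calls in every setting. The causes were not tested.

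A replicate block on the P0, P3, P14 and P21 libraries gave 12 calls in the averaged comparison, 0 at P0, 0 at P3, 0 at P14, 1 for the difference between age changes and 15 relative to the other Olfr genes. Under it the averaged calls of Olfr881, Olfr945, Olfr922 and Olfr846 were lost (adjusted p = 0.0686, 0.0512, 0.0934 and 0.145), as were those of Olfr920 (0.0786) and, relative to the other Olfr genes, of Olfr860 (0.0563), Olfr984 (0.082), Olfr876 (0.0541), Olfr894 (0.061) and Olfr881 (0.11). Deviations of same-numbered libraries correlated at -0.213 to 0.332 over 13 pairs, and 5 pairs correlated best with their own number: all 3 at P3, 1 at P0 and 1 at P21. Over P0, P14 and P21 the numbers were not taken to pair the samples. Receptors with few counts limit the precision throughout.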
